A study of Mus musculus with 4 samples.

Results

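The collagen chain genes were examined in RNA-seq of cultured mouse cortical astrocytes. They were taken as the protein-coding entries of the deposited count table whose symbol has the form of Col, a type number, the letter a and a chain number. The rule found 44 genes, of 27 collagen types, among 45703 genes in the table and 21843 protein-coding genes. The rule uses names only and no measured value. The study profiled calcium signalling components, so the collagen genes were outside its stated aim.

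The data were 4 poly-A libraries, one for each of 4 cultures that the labels number 1 to 4, and all belong to 1 group without a contrast. Per the labels' protocols, glial cells came from the frontal cortex of wild-type CD-1 mice at postnatal day 4 and grew on a coated surface in medium with 10% fetal calf serum, 5% horse serum, B27 and 10 ng/ml EGF. The cells were moved to dishes on day 6 in culture and lysed 3 days afterwards, following 1 h in serum-free Ham's medium. No sorting step is described, and the labels do not say which cultures came from separate animals or preparations, so any p-value measures only the spread between these 4 libraries, which may be technical. The libraries held 37300485 to 42369109 counts, and 1 count was worth 0.0236 to 0.0268 CPM (counts scaled to a library total of 1000000). Of 10 astrocyte markers most were abundant, with Slc1a3 at 2501 to 2693 CPM and Aldh1l1 at 721 to 752 CPM. The lowest was S100b, at 6.11 to 14.5 CPM.

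Collagens are extracellular proteins built from 3 chains wound into a triple helix, and a glycine recurs at a fixed spacing along each chain of the helix. Fibrillar collagens form the cable-like fibrils of connective tissue, type IV forms the meshwork of basement membranes, type VI forms beaded microfilaments, and the FACIT collagens (fibril-associated collagens with interrupted helices) sit on the surface of fibrils. In the brain, collagen is known chiefly from the meninges and from the basement membranes of vessels, where astrocyte endfeet meet the vessel wall.

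The repeat is visible in the genes. In the longest coding transcript of each gene in GENCODE M21, all 44 genes held an unbroken run of at least 20 triplets that open with a GGN (glycine) codon, against 0.0922% of 21681 other protein-coding genes. Of 2005 coding exons of the collagen genes 23.4% were exactly 54 bases long, which is 6 such triplets, against 0.446% of the coding exons of the other genes. The classes differed in this. The 11 fibrillar genes had 21 to 33 exons of 54 bases and a longest run of 216 to 344 triplets, whereas the 6 type IV genes had 1 to 3 such exons and a longest run of 39 to 66 triplets, and the repeat of this type is known to be interrupted at many places. One exon of 54 bases is given for each of 4 fibrillar genes on which the results below turn, to show that they carry the same repeat. Capitals mark the GGN codon that opens each of the 6 triplets, a GGN codon elsewhere in a triplet stays in lower case, and the positions are on GRCm38. They are coding exon 8 of 51 of Col1a1 (chr11:94939904-94939957, plus strand), 8 of 52 of Col1a2 (chr6:4515481-4515534, plus strand), 6 of 54 of Col5a2 (chr1:45434892-45434945, minus strand) and 15 of 67 of Col11a1 (chr3:114108281-114108334, plus strand).
Col1a1: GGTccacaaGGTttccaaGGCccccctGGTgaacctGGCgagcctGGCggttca
Col1a2: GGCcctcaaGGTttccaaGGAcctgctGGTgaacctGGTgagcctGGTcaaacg
Col5a2: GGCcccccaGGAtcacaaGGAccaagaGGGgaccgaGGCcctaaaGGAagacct
Col11a1: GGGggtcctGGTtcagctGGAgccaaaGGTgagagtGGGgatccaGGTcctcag

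**Figure D1:**
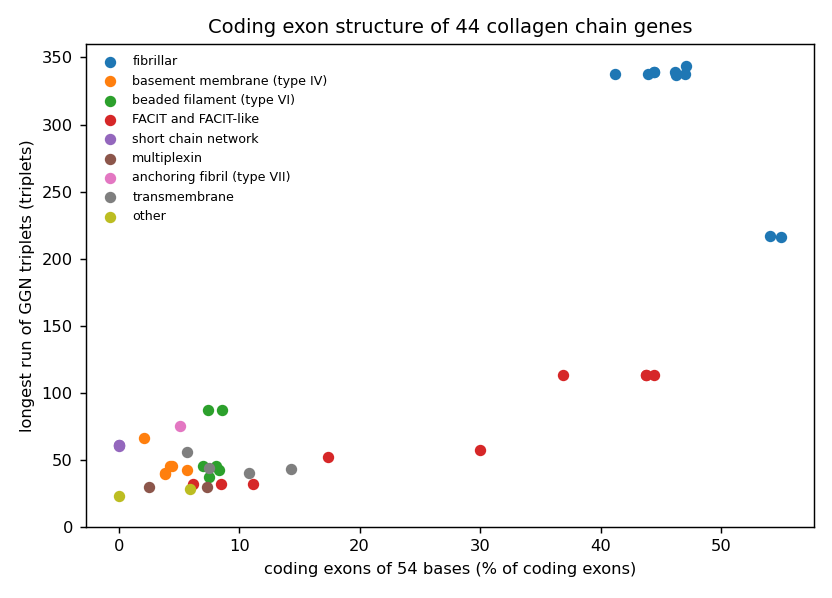
Each point is 1 of the 44 collagen chain genes, with the share of its coding exons that are 54 bases long (x axis, percent) and its longest unbroken run of GGN triplets (y axis, triplets), coloured by class. The 11 fibrillar genes lie at 216 to 344 triplets, above every gene of the other classes, and the 3 short chain network genes have no exon of 54 bases.

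Most of the family was transcribed in these cultures. In all 4 libraries 33 of 44 collagen genes (75%) reached a CPM of at least 1, against 58.1% of all protein-coding genes and 32.2% of all genes in the table, and these 33 covered 19 of the 27 types. Together the collagen genes took 0.549% (95% exact binomial interval 0.547 to 0.551), 0.540% (0.538 to 0.542), 0.568% (0.565 to 0.570) and 0.423% (0.421 to 0.425) of the counts of cultures 1 to 4. The intervals cover counting error only, since copies made by PCR were not marked and can be counted more than once. Culture 4 was the lowest. No interval overlapped that of any other culture, so the lack of overlap does not by itself set culture 4 apart. The counts were concentrated in few genes, with 57.8% of all collagen counts in Col5a2, Col4a1, Col1a2, Col1a1 and Col4a5 and 95.4% in the 14 most abundant genes by CPM.

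Levels of different genes are given per length, as RPKM (CPM per kilobase of combined exon length), as mean ± SD over the cultures (n = 4). Fibrillar genes led, with Col5a2 at 125 ± 3.89 RPKM and Col1a2 at 125 ± 30.9 RPKM. Type IV chains came next, with Col4a1 at 86.2 ± 3.74 RPKM, followed by Col1a1 at 78.4 ± 44.3 RPKM, Col4a5 at 63.2 ± 5.24 RPKM and Col8a1 at 49.5 ± 4.32 RPKM. The next 4 were Col5a1 at 33.4 ± 4.83, Col18a1 at 30.9 ± 2.39, Col6a1 at 30.8 ± 11.7 and Col4a2 at 29.1 ± 2.202 RPKM. The wide SD of Col1a2, Col1a1 and Col6a1 came from culture 4, as described below. Culture 4 also set part of the order. In cultures 1 to 3 Col1a2 (138 to 144 RPKM) was above Col5a2 (121 to 130 RPKM). Col1a1 (96.1 to 105 RPKM) was above Col4a1 (86.0 to 90.3 RPKM) in the same cultures, and Col6a1 (36.0 to 37.7 RPKM) was above Col5a1 (35.3 to 36.5 RPKM). Read as mean ± 1 SD, neighbours in the order of the means overlapped between Col5a2 and Col1a2, from Col4a1 to Col4a5 and from Col5a1 to Col4a2. They did not overlap between Col1a2 and Col4a1, between Col4a5 and Col8a1 or between Col8a1 and Col5a1. The first of these steps did not hold in culture 4, where Col1a2 was at 78.6 RPKM and Col4a1 at 81.3 RPKM. For scale, the median of the 33 expressed collagen genes was 4.70 RPKM and that of 12700 expressed protein-coding genes was 8.04 RPKM.

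**Figure D2:**
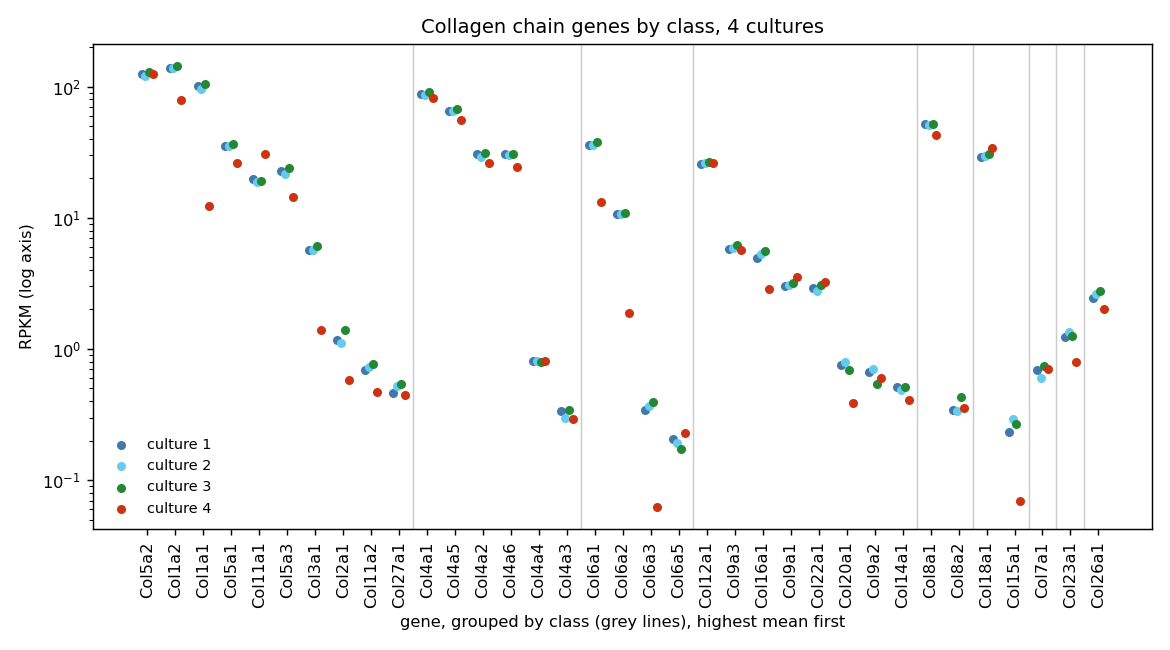
RPKM (log axis) of the 35 collagen genes whose mean reached 1 CPM, with 1 point for each culture, grouped by class and ordered by mean within a class. Cultures 1 to 3 nearly coincide for each gene, while culture 4 lies far below them for Col1a1, Col3a1, Col6a1, Col6a2, Col6a3 and Col15a1.

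Of 11 fibrillar genes 10 were expressed. Type I collagen is the main collagen of skin, bone and meninges, and its usual trimer holds more Col1a1 than Col1a2 chains. Col1a2 (GeneID 12843), on the plus strand of chromosome 6 from 4505618 to 4541543 in GRCm38.p6, had 728, 719, 749 and 410.3 CPM in cultures 1 to 4. Col1a1 (GeneID 12842; chromosome 11 from 94936224 to 94953042, plus strand) had 595, 570.1, 623 and 72.4 CPM. Both were close together in cultures 1 to 3 and lowest in culture 4. Col3a1, the type III chain that joins type I fibrils in soft tissues, had 31.6, 31.6, 33.8 and 7.72 CPM, again with culture 4 lowest and outside the range of the others.

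Type V collagen nucleates fibrils and sets their width. Its gene Col5a2 (GeneID 12832; chromosome 1 from 45374331 to 45503282, minus strand) had 827, 800.03, 861 and 819 CPM, so that culture 4 lay inside the range of cultures 1 to 3. Col5a1 had 300.5, 302, 311 and 223 CPM, and Col5a3 had 149, 143, 157 and 95.1 CPM. For both genes culture 4 was below the others. Type XI collagen is the relative of type V in cartilage and in early tissues. Its gene Col11a1 (GeneID 12814; chromosome 3 from 114030479 to 114220756, plus strand) had 157, 148, 151 and 243 CPM, and here culture 4 was the highest. Col11a2 had 5.04, 5.33, 5.62 and 3.43 CPM. Col2a1, whose product is also the third chain of type XI, had 6.82, 6.48, 8.26 and 3.42 CPM. Both were low and lowest in culture 4, and Col27a1, a fibrillar chain known from cartilage, was low as well (3.85 to 4.66 CPM). Col24a1 stayed under 1 CPM in every library, at 0.21 to 0.40 CPM.

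All 6 type IV genes were expressed. Trimers of this type are known in 3 forms, built from Col4a1 with Col4a2, from Col4a3 with Col4a4 and Col4a5, and from Col4a5 with Col4a6. Col4a1 (GeneID 12826; chromosome 8 from 11198423 to 11312889, minus strand) had 657, 647, 679 and 611 CPM. Its partner Col4a2 (GeneID 12827; chromosome 8 from 11312805 to 11449287, plus strand) had 196, 188, 199.9 and 168 CPM. Col4a5 (GeneID 12830; chromosome X from 141475370 to 141689236, plus strand), a chain of the kidney glomerulus and of smooth muscle basement membranes, had 425, 425, 443 and 365 CPM, and Col4a6 (GeneID 94216; chromosome X from 141165403 to 141474095, minus strand) had 211, 210.2, 212 and 171 CPM. Culture 4 was below the other 3 cultures for these 4 genes, by 1.08-fold to 1.24-fold. The remaining chains were far lower, with Col4a4 at 9.32, 9.33, 9.14 and 9.42 CPM and Col4a3 at 2.896, 2.54, 2.95 and 2.53 CPM.

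Type VI collagen is known from the matrix around cells in muscle, skin and peripheral nerve, and its usual trimer takes a chain each of Col6a1, Col6a2 and Col6a3. Col6a1 (GeneID 12833; chromosome 10 from 76708792 to 76726044, minus strand) had 143, 144, 149.8 and 52.5 CPM. Col6a2 (GeneID 12834; chromosome 10 from 76595756 to 76623630, minus strand) had 64.0, 64.3, 65.6 and 11.3 CPM. Col6a3 had only 3.70, 4.02, 4.26 and 0.68 CPM, or 501 counts in all. In each of these genes culture 4 was the lowest by far. Of the chains that can stand in for Col6a3, Col6a5 had 1.94, 1.796, 1.61 and 2.16 CPM, and Col6a4 and Col6a6 were under 0.22 CPM in every library. Col6a6 had 5 counts in all and none in cultures 2 and 3, where a count of 0 allows up to 0.0748 and 0.0804 CPM.

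Outside these types, 8 of 9 FACIT and related genes were expressed. Col12a1, which binds fibrils in tendon and skin, had 366, 369.9, 376 and 370.4 CPM and the smallest relative spread of the family. Col16a1 had 30.9, 33.3, 35.3 and 18.03 CPM, with culture 4 lowest. The type IX genes, known from cartilage and the vitreous of the eye, were led by Col9a3 with 17.9, 18.2, 19.2 and 17.6 CPM. Col9a1 had 12.9, 13.1, 13.6 and 14.9 CPM, and Col9a2 had 1.83, 1.95, 1.47 and 1.65 CPM, with no culture far from the others. Col22a1, a chain of tissue junctions, had 25.99 to 30.2 CPM. Col20a1 had 5.91, 6.28, 5.42 and 3.04 CPM, lowest in culture 4. Col14a1 was low (2.93 to 3.67 CPM), and Col19a1 stayed under 1 CPM at 0.17 to 0.27 CPM.

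The short chain network gene Col8a1 (GeneID 12837; chromosome 16 from 57624256 to 57754737, minus strand), known from vessel walls and the cornea, had 267, 259.6, 265 and 220.2 CPM. Its paralogue Col8a2 had 1.75, 1.72, 2.198 and 1.82 CPM. Col10a1, the collagen of hypertrophic cartilage, had 14 counts in all. Among the multiplexins, Col18a1 (GeneID 12822; chromosome 10 from 77052178 to 77166530, minus strand), the basement membrane proteoglycan whose end fragment is endostatin, had 210.3, 215, 224 and 249 CPM, highest in culture 4. Its relative Col15a1 had 1.34, 1.67, 1.53 and 0.40 CPM, lowest in culture 4.

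The other genes were at low levels. Col26a1 had 8.12 to 11.1 CPM, the transmembrane chain Col23a1 4.79 to 8.16 CPM and Col7a1, the anchoring fibril chain of skin, 5.59 to 6.86 CPM. Under 1 CPM in every library were the transmembrane genes Col17a1 (0.12 to 0.46 CPM), Col25a1 (0.073 to 0.71 CPM) and Col13a1 (5 counts in all), and Col28a1 (19 counts in all). In total 9 of the 44 genes had a mean under 1 CPM. They were Col6a4, Col6a6, Col10a1, Col13a1, Col17a1, Col19a1, Col24a1, Col25a1 and Col28a1.

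Chains of 1 type were then compared within each library as ratios of RPKM, which asks how far the transcripts of a trimer's chains depart from equal levels. Of the 36 pairs of collagen chains of 1 type that could be tested, 34 differed (edgeR quasi-likelihood test, Benjamini-Hochberg adjusted over 9701 pairs of genes with a common symbol stem in the whole table). That share is near the background, since 95.1% of all such pairs differed, so the sizes and their steadiness across cultures carry the description. The sizes depend on the exon lengths used. With GENCODE transcript lengths the fitted fold of Col6a1 over Col6a2 went from 3.98 to 2.54. That of Col6a2 over Col6a3 went from 29.3 to 41.5 and that of Col11a1 over Col11a2 from 32.6 to 24.9. The fold of Col5a2 over Col5a1 moved little, from 3.78 to 3.72. Col1a1 was below Col1a2 in 4 of 4 libraries, with a ratio of 0.72, 0.70, 0.73 and 0.16 in cultures 1 to 4. The fitted log2 ratio was -0.98 ± 0.39 (SE; edgeR, adjusted p = 0.0427). The pair no longer passed when culture 1, 2 or 3 was left out, with log2 ratios of -1.17, -1.16 and -1.18 (edgeR, adjusted p = 0.0567, 0.0599 and 0.0631), or when length was ignored (edgeR, adjusted p = 0.0842). Leaving out culture 4, the log2 ratio was -0.48 (edgeR, adjusted p = 4.75e-13).

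The type IV ratios were steady by comparison. Col4a1 was above Col4a2 in 4 of 4 libraries by 2.87-fold, 2.95-fold, 2.91-fold and 3.12-fold (log2 ratio 1.57 ± 0.04, SE; edgeR, adjusted p = 3.33e-08). Col4a5 was 2.14-fold, 2.15-fold, 2.22-fold and 2.26-fold above Col4a6 (log2 ratio 1.13 ± 0.04, SE; edgeR, adjusted p = 1.19e-07). In these ratios culture 4 was the highest, but only slightly. Col4a2 and Col4a6 were not told apart, with ratios of 0.96 to 1.06 (edgeR, adjusted p = 0.738), and the lower pair Col4a3 and Col4a4 had ratios of 0.36 to 0.43.

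In type V, Col5a2 was 3.41-fold to 3.56-fold above Col5a1 in cultures 1 to 3 and 4.73-fold above it in culture 4 (fitted log2 ratio of Col5a1 to Col5a2 -1.92 ± 0.09, SE; edgeR, adjusted p = 4.83e-07). In type VI, Col6a1 was 3.38-fold, 3.39-fold and 3.45-fold above Col6a2 in cultures 1 to 3 and 7.02-fold in culture 4 (log2 ratio 1.99 ± 0.18, SE; edgeR, adjusted p = 2.37e-05). Col6a2 was 27.8-fold to 31.3-fold above Col6a3 in all 4 cultures, so these chains kept their ratio while both were lowest in culture 4. Col6a3 and Col6a5 were not told apart over the 4 libraries (edgeR, adjusted p = 0.462). Col6a3 was 1.65-fold to 2.28-fold above Col6a5 in cultures 1 to 3 and 3.67-fold below it in culture 4, and without culture 4 the pair differed (edgeR, adjusted p = 2.06e-06). Col8a1 was 121-fold to 154-fold above Col8a2. In type IX, Col9a3 was 1.62-fold to 1.94-fold above Col9a1, which was 4.37-fold to 5.96-fold above Col9a2. Col11a1 was 24.8-fold to 28.8-fold above Col11a2 in cultures 1 to 3 and 65.2-fold in culture 4, and 13.6-fold to 17.1-fold and 52.6-fold above Col2a1, a pair that was not tested because the symbols differ.

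**Figure D3:**
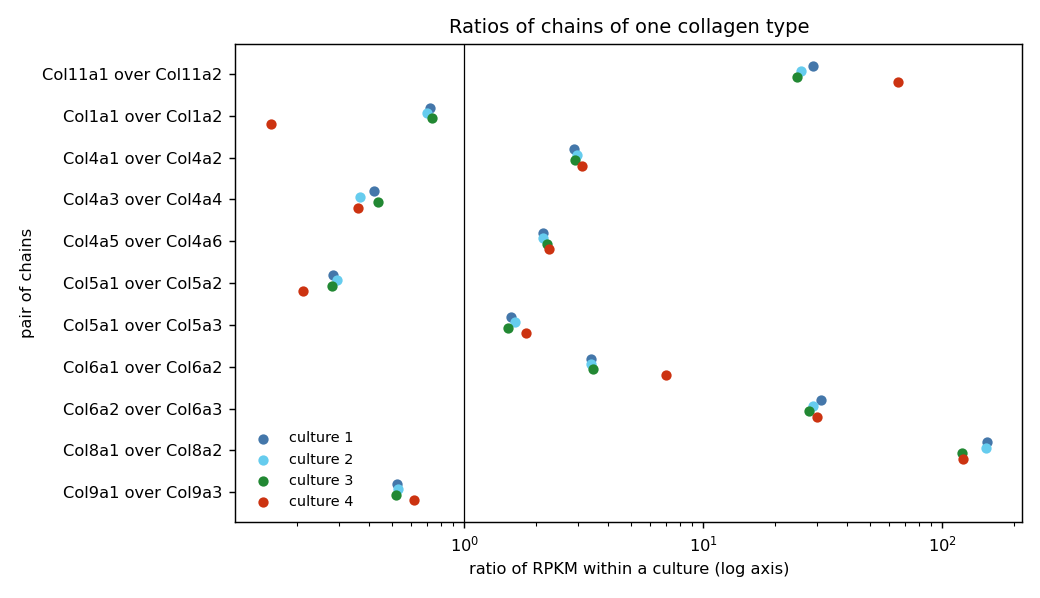
Ratios of RPKM (log axis) between 2 chains of the same collagen type within each culture, with 1 point for each of the 4 cultures. The ratios of Col4a1 to Col4a2 and of Col4a5 to Col4a6 are nearly the same in every culture, whereas culture 4 stands apart for Col1a1 over Col1a2, Col6a1 over Col6a2 and Col11a1 over Col11a2.

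The cultures differed mainly in 1 library. In the 35 collagen genes whose mean reached 1 CPM, the highest of cultures 1 to 3 exceeded the lowest by a median of 1.08-fold and at most by 1.32-fold. Culture 4 lay below all of the other 3 cultures in 24 of these genes, above them in 6 and among them in 5, while it lay below in 35.2% and above in 47.0% of all 15217 genes at that level. Set against the mean of the other 3, culture 4 was more than 2-fold lower in 7 of 35 collagen genes, beside 1.89% of all genes, and more than 2-fold higher in 0, beside 0.598%. In cultures 1, 2 and 3 no collagen gene was more than 2-fold lower, beside 0.204%, 0.138% and 0.158% of all genes, or more than 2-fold higher, beside 0%, 0.0131% and 0% of all genes. At 1.5-fold, culture 4 was lower in 13 collagen genes, beside 5.74% of all genes, and higher in 1, beside 2.39%. Cultures 1, 2 and 3 were lower by that much in no collagen gene, beside 0.644%, 0.493% and 0.572% of all genes. They were higher in 0, 1 (Col15a1) and 2 (Col1a1 and Col6a3), beside 0.151%, 0.256% and 0.302%, and culture 4 is part of the mean they were set against. Culture 4 is a single library, so these differences have no test.

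The 7 genes were Col1a1 (8.23-fold lower than the mean of cultures 1 to 3), Col6a3 (5.83-fold), Col6a2 (5.72-fold), Col3a1 (4.19-fold), Col15a1 (3.77-fold), Col6a1 (2.77-fold) and Col2a1 (2.10-fold). They took in the 3 chains of the usual type VI trimer, types I and III of interstitial fibrils, a multiplexin and the cartilage chain Col2a1. Below them in size came Col20a1 (1.93-fold lower), Col16a1 (1.84-fold) and Col1a2 (1.78-fold). Highest in culture 4 relative to the others was Col11a1 (1.597-fold higher), followed by Col6a5 (1.21-fold) and Col18a1 (1.15-fold). No type IV gene was more than 1.5-fold lower in culture 4, and the same held for Col5a1, Col5a2, Col8a1 and Col12a1. The median log2 deviation of the 35 genes was -0.26 in culture 4, against 0.03 for all genes, and 0.10, 0.07 and 0.15 in cultures 1 to 3, where culture 4 is part of the mean they are set against.

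**Figure D4:**
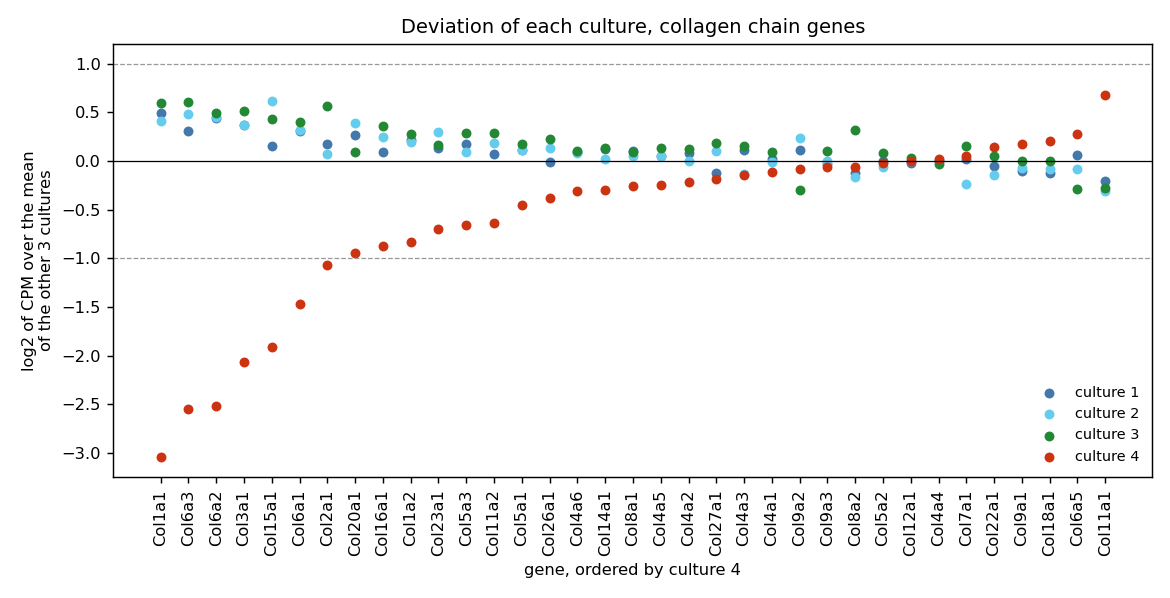
log2 of the CPM of each culture over the mean CPM of the other 3 cultures, for 35 collagen genes ordered by culture 4. Dashed lines mark 2-fold. Culture 4 runs from -3.04 (Col1a1) to 0.68 (Col11a1), and cultures 1 to 3 stay within 2-fold for every gene.

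**Figure D5:**
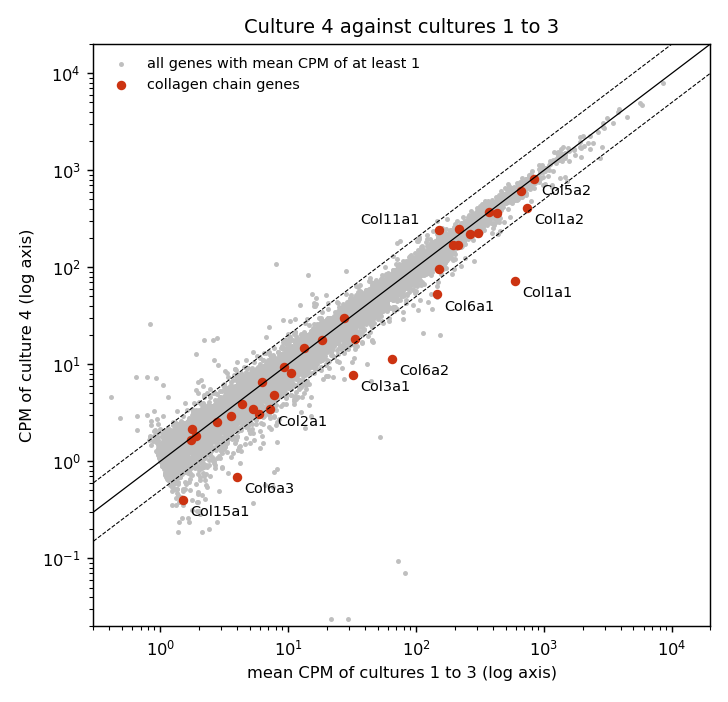
CPM of culture 4 against the mean CPM of cultures 1 to 3 (both log axes) for 15217 genes whose mean reached 1 CPM, less 11 that fall outside the axes. The solid line is equality, dashed lines are 2-fold, and the larger coloured points are the collagen genes, which include 7 below the lower dashed line.

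By class, the summed level of the fibrillar genes was 2730 to 2906 CPM in cultures 1 to 3 and 1881 CPM in culture 4. That of the type VI genes was 213 to 221 CPM and 66.9 CPM, and that of the type IV genes 1482 to 1546 CPM and 1327 CPM. The FACIT genes together stood at 466 to 484 CPM and 459 CPM. Fibrillar genes therefore made up 50.5% to 51.2% of the collagen counts in cultures 1 to 3 and 44.5% in culture 4, and type IV genes 27.2% to 27.4% and 31.4%.

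In bulk libraries, fewer cells of a type and less RNA per cell cannot be told apart, and markers of other cells are given here beside the difference in culture 4. A fibroblast list of 14 genes without collagens summed to 1693 to 1744 CPM in cultures 1 to 3 and to 1503 CPM in culture 4. Of its 9 genes whose mean reached 1 CPM, 6 were lower in culture 4, beside 43.9% of all genes. Among them 1 was more than 2-fold lower (Igf2, 2.27-fold), beside 1.89% of all genes. Fbln1, Foxc1 and Twist1 were higher. Of these, Fbln1 was more than 2-fold higher, at 27.7 CPM against 10.1 to 10.7 CPM, beside 0.598% of all genes. Most of that sum was Islr (824 ± 34.3 CPM) and Thy1 (592 ± 59.7 CPM), the latter also a surface protein of neurons. Also expressed in every library were Ogn (99.9 to 142 CPM), Prrx1 (62.6 to 82.5 CPM), Foxc1 (15.8 to 17.7 CPM) and Twist1 (8.18 to 9.79 CPM). Under 1 CPM in every library were Dcn (0.54 to 0.97 CPM), Lum (0.047 to 0.40 CPM), Slc6a13, Foxd1 and Tbx18, and none of the 14 was at 0 throughout.

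A mural list of 11 genes summed to 3042 to 3223 CPM in cultures 1 to 3 and to 2937 CPM in culture 4, with no count of Higd1b and with Kcnj8 and Abcc9 under 0.15 CPM. Its 5 expressed genes were the smooth muscle actin gene Acta2 (1929 ± 53.3 CPM), Tagln (1019 ± 98.2 CPM), Notch3 (83.4 to 115 CPM), Pdgfrb (20.9 to 31.4 CPM) and Rgs5 (5.10 to 8.95 CPM). None of these 5 was past 2-fold in culture 4, and 4 were lower there, beside 43.9% of all genes. Notch3, Pdgfrb, Rgs5 and Tagln were 1.34-fold, 1.48-fold, 1.62-fold and 1.22-fold lower. Acta2, at 1950 CPM in culture 4, lay among the 1851 to 1973 CPM of cultures 1 to 3. Among the genes with a mean under 1 CPM, Des was 3.81-fold lower (58.5 counts in all), Anpep 1.23-fold and Myh11 1.09-fold. Kcnj8 and Abcc9 had 9 and 14 counts in all, too few for a fold to be read. An endothelial list of 10 genes summed to 15.4 to 16.2 CPM and to 8.67 CPM, with 1 count of Cldn5 in all. A microglial list of 10 genes summed to 132 to 140.3 CPM and to 86.3 CPM. The oligodendrocyte lineage list of 8 genes summed to 271 to 282 CPM and to 267 CPM, and the neuronal list of 8 genes to 201 to 207 CPM and to 178 CPM. Most of the first sum was Olig2 (232 to 251 CPM) and most of the second was Stmn2 (142 to 154 CPM). Mog, Mag, Sox10, Rbfox3, Slc17a7 and Snap25 were under 1 CPM in every library. Among genes whose mean reached 1 CPM, all 10 microglial genes were lower in culture 4, with a median log2 value of -0.65. Also lower were 2 of 2 endothelial, 4 of 4 neuronal and 3 of 4 oligodendrocyte lineage genes, beside 43.9% of all genes. In the same set of genes, 1 of 2 endothelial genes (Flt1, 4.15-fold) was more than 2-fold lower in culture 4. So were 1 of 10 microglial genes (Tmem119, 4.46-fold) and 1 of 4 neuronal genes (Tubb3, 2.64-fold), beside 1.89% of all genes. No such gene of the oligodendrocyte lineage list was. The astrocyte list of 10 genes summed to 7450 to 7629 CPM and to 6432 CPM, with a median log2 value of -0.09 in culture 4. In it 6 genes were lower in culture 4, beside 43.9% of all genes, and S100b was more than 2-fold lower (2.24-fold), beside 1.89%. Slc1a2, Aldoc, Aldh1l1 and Sox9 were higher. Gfap had 1498 to 1555 CPM in cultures 1 to 3 and 780 CPM in culture 4, and Slc1a2 had 285 to 311 CPM and 368 CPM. The part of these lists in the collagen values was not tested.

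Several collagen genes are neighbours on a chromosome, and their values could be set side by side. The type IV genes lie in head to head pairs. The models of Col4a1 and Col4a2 overlap by 85 bases at their starts and those of Col4a3 and Col4a4 by 114 bases, and 1274 bases separate Col4a5 from Col4a6. Where models overlap on opposite strands, reads cannot be told apart without strand, a setting not given in the sources used here. In culture 4 the log2 values were -0.11 with -0.21 for Col4a1 and Col4a2, -0.15 with 0.02 for Col4a3 and Col4a4 and -0.24 with -0.30 for Col4a5 and Col4a6, and that of Col4a4 was -0.0062 with TMM scaling. Col9a1 and Col19a1, tail to tail on chromosome 1 with 4944 bases between them, had 0.17 and -0.57, the latter from 36 counts. Col3a1 and Col5a2, tail to tail with 24624 bases between them on chromosome 1, had log2 values of -2.07 and -0.02. Col6a1 and Col6a2, 85161 bases apart on chromosome 10 and on the same strand, had -1.47 and -2.52.

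Sequence before the gene start is shown for 3 genes that were lower in culture 4 and for Col11a1, which was higher. RefSeq windows for GRCm38.p6 (250 bases before to 50 after a start) were found for 35 of the 44 genes, in 38 windows. The 9 not matched were Col1a1, Col2a1, Col4a3, Col5a2, Col9a3, Col12a1, Col14a1, Col22a1 and Col26a1. Each line gives the 120 bases before the start of the gene in the deposited table, at chr6:4505498-4505617 (plus strand) for Col1a2, chr1:45311418-45311537 (plus strand) for Col3a1, chr10:76726045-76726164 (minus strand) for Col6a1 and chr3:114030359-114030478 (plus strand) for Col11a1. Capitals mark matches, on either strand, to 4 short promoter motifs. They are CCAAT, then GGGCGG as bound by the Sp1 family, then TATAAA as found near some starts, and last TGANTCA with any base at N, as bound by the AP-1 family.
Col1a2: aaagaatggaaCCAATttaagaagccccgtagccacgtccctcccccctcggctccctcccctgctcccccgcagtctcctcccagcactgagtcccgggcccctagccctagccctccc
Col3a1: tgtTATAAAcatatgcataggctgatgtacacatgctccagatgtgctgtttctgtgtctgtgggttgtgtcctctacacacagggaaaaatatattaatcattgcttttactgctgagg
Col6a1: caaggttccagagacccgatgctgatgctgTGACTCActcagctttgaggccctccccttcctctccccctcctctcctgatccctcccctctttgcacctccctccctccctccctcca
Col11a1: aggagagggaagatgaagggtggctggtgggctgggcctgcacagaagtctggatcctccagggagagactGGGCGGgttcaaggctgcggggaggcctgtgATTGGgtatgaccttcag

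These 4 sequences share none of the marked motifs except CCAAT, found in Col1a2 and, on the other strand, in Col11a1. Over whole windows, GGGCGG was present in 23 of 38 collagen windows (60.5%) and in 35.7% of 32851 windows of all genes, CCAAT in 34.2% and 37.4%, TATAAA in 13.2% and 13.6%, and TGANTCA in 2.63% and 7.81%. In the 6 windows of genes that were more than 2-fold lower in culture 4, CCAAT was present in 0, GGGCGG in 2, TATAAA in 1 and TGANTCA in 1. Col1a1 and Col2a1, which were also more than 2-fold lower, had no window. A match describes letters only and does not show that a factor binds there.

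The genes that build, export, process, bind and break down collagen were mostly expressed. All 22 genes of procollagen synthesis and folding reached a CPM of 1 in every library, led by the matrix glycoprotein Sparc at 2857 ± 72.1 CPM, P4hb, a subunit of prolyl hydroxylase, at 671 ± 5.13 CPM and the collagen chaperone Serpinh1 (HSP47) at 613 ± 13.6 CPM. All 10 export genes were expressed as well, with Sar1a at 202 ± 2.35, Sec13 at 150.7 ± 2.67 and Sec31a at 133 ± 1.71 CPM, all parts of the COPII coat. Of 13 processing and crosslinking genes 12 were expressed, led by the procollagen C-proteinase Bmp1 at 249 ± 20.99 CPM and the lysyl oxidase relatives Loxl1 at 140.1 ± 4.85 and Loxl3 at 72.5 ± 7.85 CPM. Of 10 receptor and uptake genes 8 were expressed, with the integrin chains Itgb1 at 1709 ± 47.9 and Itga1 at 110.1 ± 11.95 CPM and the collagen receptor kinase Ddr1 at 562 ± 35.6 CPM. Only 3 of 9 degradation genes were expressed, Mmp14 at 487 ± 36.3, Mmp2 at 38.2 ± 13.9 and Mmp16 at 28.1 ± 1.30 CPM.

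In culture 4, 5 of 56 of these genes whose mean reached 1 CPM were more than 2-fold lower and 0 more than 2-fold higher, beside 1.89% and 0.598% of all genes. Lox, the enzyme that starts collagen crosslinks, had 40.4, 43.5, 39.3 and 10.1 CPM in cultures 1 to 4 and was 4.06-fold lower in culture 4. P4ha3, a catalytic subunit of prolyl hydroxylase, had 101, 104, 103 and 36.1 CPM and was 2.85-fold lower. The gelatinase Mmp2 had 43.98, 45.1, 46.3 and 17.5 CPM (2.58-fold lower), the inhibitory receptor Lair1 3.07, 3.06, 2.95 and 1.20 CPM (2.51-fold lower), and Adamts2, which removes the amino-terminal propeptide of fibrillar procollagens, 10.5, 10.4, 10.8 and 4.87 CPM (2.17-fold lower). Among abundant genes of these lists, P4hb had 664 to 677 CPM and Serpinh1 598 to 631 CPM across the 4 cultures. Bmp1 had 253 to 263 CPM in cultures 1 to 3 and 218 CPM in culture 4, Ddr1 564 to 591 CPM and 511 CPM, and Mmp14 465 to 473 CPM and 541 CPM. The median log2 value of culture 4 was -0.05 for synthesis and folding, -0.03 for export, -0.27 for processing and crosslinking, -0.18 for receptors and uptake and 0.10 for degradation.

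The spread of each gene over the 4 cultures was also estimated as a biological coefficient of variation (BCV) with edgeR. Its median was 0.126 over 35 collagen genes kept by the filter and 0.0941 over all 17113 genes kept. It ran from 0.0601 for Col12a1 and 0.0649 for Col5a2 to 0.516 for Col6a2, 0.523 for Col6a3 and 0.594 for Col1a1. Without culture 4 the medians were 0.0263 for the collagen genes and 0.0255 for all genes. Between cultures 1 to 3, the squared difference in counts relative to sampling noise averaged 2.61 to 9.97 per collagen gene and 2.11 to 3.17 per gene over all genes (40 counts or more between the 2 libraries). With culture 4 it averaged 742 to 856 and 39.4 to 41.1. At the same fold difference this measure grows with a gene's counts, so it does not compare the size of the differences between collagen genes and all genes. By this measure the first 3 cultures were closer to each other than to culture 4. They were above sampling noise (a value of 1) and were kept as separate samples.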

How the data were processed

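The authors deposited 1 table of 45703 genes with RefSeq positions, combined exon lengths (used for RPKM and as an offset, a unit of bases) and estimated counts for each of 4 libraries. Per the submitters' processing notes, the tools were STAR 2.7.2b, featureCounts 1.6.4 (Subread), cutadapt 1.17 and bcl2fastq 2.20.0.422, with GRCm38.p6 as the build; their roles and the strand setting were not given in the sources used here. Of the deposited counts above 0, 31.7% were not exactly whole, and 16 of the 44 collagen genes had such a value, so these may share reads with another feature. Per the labels' protocols, libraries came from 500 ng of total RNA (RNA integrity number above 9.3) with a stranded poly-A kit and 14 PCR cycles.

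CPM used raw library sums. Pairs of protein-coding genes whose symbols differ only in the last number (stems of 2 to 10 genes, with at least 1 gene of the pair at CPM 1 in every library) were compared with edgeR 4.0.16. The estimated counts of a pair (8 values) were first rounded. Library size and exon length entered as a log offset, with library and gene as model terms. Pairs share genes, so their tests are not independent. The SE was the log2 ratio over the square root of F. The test was checked on simulated data in which every gene had the same spread and no library stood apart. That check does not cover a library like culture 4. BCV used TMM and edgeR's default filter. Coding exons came from the longest coding transcript in GENCODE M21 (GRCm38). A total of 3 counts was the floor. Alternatives were DESeq2 1.42.0, other scalings, lengths and filters, and leaving out each culture.

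The collagen genes, marker lists and tests were chosen with earlier results of these data known. Genes given in every library were the 10 highest by RPKM, the 10 that deviated most in 1 culture and chains known to share a trimer. For pathway lists they were the 3 highest by CPM and those past 2-fold.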

Additional observations from a re-analysis of the deposited data

Results flagged for a closer look

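In 10 of 35 collagen genes, 1 library stood apart from the other 3 by Dixon's test for 4 samples, and it was culture 4 each time, lowest in 9 genes and highest in 1. By chance about 1 in 20 groups is picked out, and 15.2% of 15217 genes whose mean reached 1 CPM were. The standing-apart values of culture 4 in CPM were 410.3 for Col1a2, 72.4 for Col1a1, 220.2 for Col8a1, 223 for Col5a1, 52.5 for Col6a1, 171 for Col4a6, 11.3 for Col6a2, 7.72 for Col3a1 and 0.68 for Col6a3 as lowest values and 243 for Col11a1 as the highest. Of 19 ratios of RPKM examined between chains of types I, IV, V, VI, VIII, IX and XI, 9 had culture 4 apart; not all of these pairs share a trimer. They were 65.2 for Col11a1 over Col11a2, 0.16 for Col1a1 over Col1a2, 1.46 for Col4a1 over Col4a5, 0.21 for Col5a1 over Col5a2, 8.59 for Col5a2 over Col5a3, 7.02 for Col6a1 over Col6a2, 209.6 for Col6a1 over Col6a3, 0.62 for Col9a1 over Col9a3 and 52.6 for Col11a1 over Col2a1. Neither the share of counts in collagen genes nor the other 10 ratios were picked out. The share of ratios picked out over other pairs of genes in the table was not taken. The ratios share genes, and several of these genes were among the 10 picked out singly, so the 9 ratios are not separate results.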

How the results depend on the processing

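The number of expressed collagen genes was 29 to 35 under all settings tried, lowest with TPM and highest without culture 4. The number of differing pairs was 33 or 34 of 36, except 37 of 39 without the filter and 37 of 38 without culture 4, while 88.0% to 96.8% of all such pairs differed. The 7 genes more than 2-fold lower in culture 4 numbered 7 with TMM, with DESeq2 size factors and without culture 1, 2 or 3. They numbered 13 at 1.5-fold, where 5.74% of all genes passed, and 1 gene was then higher, beside 2.39%. With a mean of 0.1 CPM or more, 8 of 41 collagen genes were more than 2-fold lower (Col17a1 joined), beside 4.23% of all genes, and 1 (Col25a1) was higher, beside 2.13%. TMM shifted the log2 value of culture 4 by -0.03 for the median gene. The collagen share of counts averaged 0.520% (0.504 to 0.552 leaving out each culture) and 0.406% without Col1a1, Col1a2 and Col3a1. The median BCV was 0.133 without a filter, where that of all genes was 0.131, and 0.0263 to 0.161 leaving out each culture, with its lowest value without culture 4. The log2 ratio of Col4a2 to Col4a6 changed sign, to -0.094 without the length term, -0.050 with GENCODE lengths and -0.0089 without culture 4 (up to 0.037 leaving out another culture), and was not called in any of them. That of Col6a3 to Col6a5 was -0.27 with cultures 1 to 3 summed as 1 sample. The summed sample and the GENCODE lengths were chosen after seeing the data. Apart from the pairs of Col1a1 with Col1a2 and of Col6a3 with Col6a5, no pair crossed the threshold. The cause of these shifts, the lost calls included, was not tested. No paired analysis was possible because the series has 1 group. Genes with few counts, such as Col13a1 and Col6a6, are at the limit of this depth.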
